A study of Oryza sativa with 12 samples.

Results

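HFL1 is a transgenic rice line whose seed lysine is labelled high, and its developing seeds were compared with those of the wild-type strain Wuxiangjiang9 (WT), labelled as normal in lysine. The comparison rests on 6 of the 12 arrays in the series, the 3 arrays labelled HFL1 and the 3 arrays labelled WT, and they were chosen by their labels alone. The other arrays are 3 of the transgenic line 35S-15 and 3 of the transgenic line GR14, both also labelled high in lysine; they entered the fit and are given beside the results. All plants were grown in a field, and developing seeds were taken. The sample labels give an age of 10 days after flowering, whereas the design text gives 15. The labels name neither the transgenes nor their promoters, and do not say how many independent transformants or plants a line stands for. Published work describes HFL1 as combining the GR14 and 35S-15 transgenes, which the labels do not state.

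Lysine is made in plastids from aspartate, through dihydrodipicolinate and diaminopimelate, and is the amino acid in shortest supply in cereal grain. In the rice grain the starchy endosperm fills with starch and with the storage proteins glutelin and prolamin, which are folded in the endoplasmic reticulum (ER) with the help of chaperones such as BiP. A green pericarp, an aleurone layer and an embryo surround or adjoin the endosperm, so RNA of whole seeds mixes several tissues. In such RNA, fewer cells of a type and less RNA per cell cannot be told apart.

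Levels are log2 of the MAS5 signal, the brightness of a probe set as scaled by the authors, with the SD over 3 arrays. Folds are differences of log2 means, HFL1 minus WT, with the standard error (SE) of a limma fit, and a call means an adjusted p under 0.05. The median probe set of an array stood at 5.85 to 5.98 in HFL1 and at 5.67 to 5.98 in WT. Nothing in the labels ties the 3 arrays of a group to different plants. The p-values thus reflect the variation among the hybridised samples, and part or all of it could be technical. For each probe set the fit shares 1 estimate of the spread among the 4 groups. At the called probe sets the SD was between 0.07 and 0.30 in HFL1 and between 0.50 and 2.44 in WT. Their SEs and p-values therefore do not show the wider WT spread by itself. The glutelin genes, which mark starchy endosperm, averaged 15.30 to 15.51 in the HFL1 arrays and 15.10 to 15.40 in the WT arrays, far above the array medians. The 3′ minus 5′ difference of the actin control, a sign of RNA integrity, was 3.90 to 4.61 in HFL1 and 4.01 to 4.27 in WT, and the ranges overlapped. Those of GAPDH and cyclophilin overlapped as well. That of ubiquitin was -0.12 to 0.04 in HFL1 and -0.20 to -0.14 in WT, a small gap without overlap, whose part in the results was not tested.

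The arrays labelled WT were not alike. RPTR-Os-K01193-1_at, one of 64 reporter probe sets on the array, read 1.13, 4.67 and 0.36 in HFL1, against 4.53, 13.51 and 13.78 in WT. Its highest level outside WT arrays 2 and 3 was 4.67. OsBiP4, an ER chaperone gene of the BiP family, read 3.91, 2.41 and 2.46 in HFL1, against 4.88, 12.71 and 13.17 in WT. Both were therefore high in WT arrays 2 and 3 and low in WT array 1 and in every HFL1 array. OsBiP4 did not enter the test, since too few of the 6 arrays lay above their median. The comparison was therefore also run with WT array 1 as the only control, which called 23 probe sets (0.0799%), and with WT arrays 2 and 3 alone, which called 16 (0.0556%). With WT array 1 as the only control, the WT group has no spread of its own, and that array is assumed to vary like the arrays of the other groups.

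**Figure D1:**
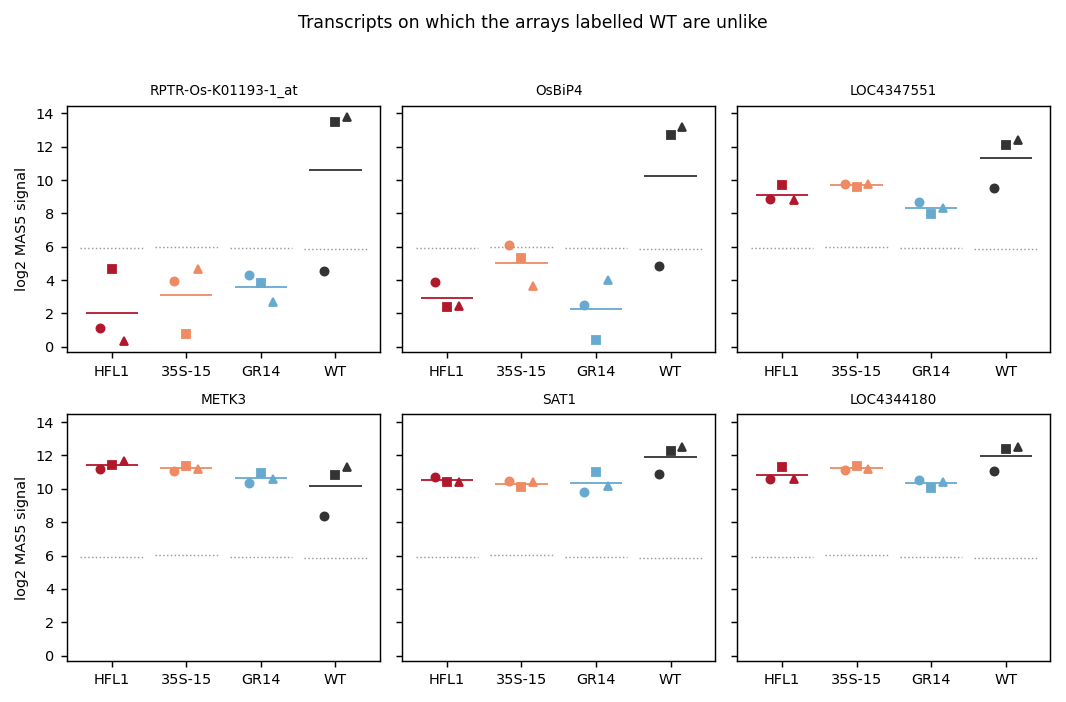
Log2 MAS5 signal of 6 transcripts in each array (circle, square and triangle for replicates 1, 2 and 3), by group, with the group mean as a line and the mean of the array medians dotted. RPTR-Os-K01193-1_at and OsBiP4 lay at 12.71 or above in WT arrays 2 and 3 and at 6.13 or below elsewhere; METK3 was low in WT array 1, and LOC4347551, SAT1 and LOC4344180 were high in WT arrays 2 and 3.

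Few transcripts separated HFL1 seeds from WT seeds by the test. Of 28800 probe sets tested, 9 were called, which is 0.0312%, and all 9 were higher in HFL1. By limma none was called lower, while 1967 probe sets in both directions (6.83%) had an unadjusted p under 0.05, against 1440 expected if none differed. The 3 HFL1 arrays all lay above the 3 WT arrays for 2157 probe sets (7.49%) and all below them for 1628 (5.65%). The called probe sets covered 3 genes through 5 probe sets, LOC4331398, LOC4340325 and LOC9268308, and 4 probe sets with no gene in the annotation used here. With 1 probe set per gene, 2 of 15714 genes were called (0.0127%). None of the 3 genes has a symbol or description in the tables used here, so no role is given for them.

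**Figure D2:**
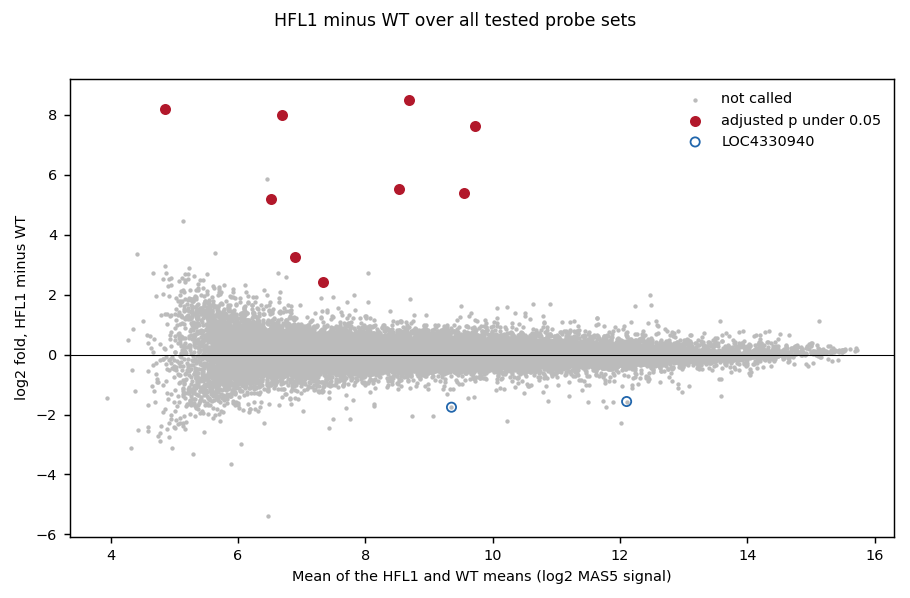
Log2 fold, HFL1 minus WT, of every tested probe set (vertical axis) against the mean of the HFL1 and WT means in log2 MAS5 signal (horizontal axis). The 9 called probe sets (red) lie at 2.42 or more, and 2 probe sets of LOC4330940 (blue circles) lie at -1.57 and -1.76 without passing the test.

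The 9 called transcripts fell into sets by their levels in the other lines. LOC4331398 was high in HFL1, in 35S-15 and in GR14 alike. Its probe set Os.43929.1.S1_s_at read 13.54, 13.61 and 13.46 in HFL1, against 4.56, 6.80 and 6.39 in WT. The groups lay far apart, and the fold was 7.62 ± 0.40 (SE, n = 3 arrays each; limma adjusted p = 1.37e-06). In 35S-15 the same probe set read 13.56, 13.46 and 13.66, and in GR14 13.73, 13.74 and 13.57. HFL1 minus GR14 was -0.14, with a 95% interval of -1.0 to 0.72, and HFL1 minus 35S-15 was -0.02, with an interval of -0.88 to 0.84.

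The other probe set of LOC4331398, Os.8823.1.S1_at, read 12.88, 13.11 and 12.82 in HFL1, against 1.63, 5.85 and 5.86 in WT. All 3 WT values lay below their array medians, so the size of the fold of 8.49 ± 0.80 (SE; limma adjusted p = 0.000514) rests on dim signal. Measured against the mean of the WT array medians instead, the HFL1 mean stood 7.09 higher on the log2 scale. WT array 1 was the dimmest of the WT arrays on both probe sets of this gene.

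Os.10660.1.S1_at, a probe set without a gene, was also high in every line. It read 12.30, 12.31 and 12.13 in HFL1, against 5.80, 7.29 and 7.48 in WT, with a fold of 5.39 ± 0.33 (SE; limma adjusted p = 4.86e-06). The WT arrays were above their medians here, and on the linear scale the fold was 41.9. HFL1 minus GR14 was 0.08 (95% interval -0.63 to 0.79) and HFL1 minus 35S-15 was 0.04 (95% interval -0.67 to 0.75).

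LOC4340325 was high in HFL1 and GR14, and low in 35S-15. Its probe set Os.10266.1.S1_at read 10.63, 10.81 and 10.64 in HFL1, against 1.81, 3.86 and 2.42 in WT. GR14 read 10.58, 10.87 and 10.77, and 35S-15 read 4.87, 5.86 and 5.57. HFL1 exceeded WT by 8.00 ± 0.43 (SE; limma adjusted p = 1.37e-06), and it exceeded 35S-15 by 5.27 (95% interval 4.34 to 6.19; limma adjusted p = 0.000466). All 3 35S-15 values lay below their medians, and the HFL1 mean stood 4.69 above the mean of those medians. HFL1 minus GR14 was -0.04, with a 95% interval of -0.97 to 0.88. WT stayed below the array medians in all 3 arrays, and the HFL1 mean stood 4.85 above the mean of those medians. A second probe set annotated to LOC4340325, Os.37590.1.S1_at, showed no such difference: it averaged 7.68 in HFL1 and 7.81 in WT, with a fold of -0.13 (limma adjusted p = 0.959). The probe sets of this gene therefore disagree.

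LOC9268308 showed the opposite pattern across the lines, being high in HFL1 and 35S-15 and low in GR14. Os.10659.1.S1_s_at read 11.32, 11.02 and 11.57 in HFL1, against 6.64, 6.01 and 4.66 in WT. 35S-15 read 10.96, 10.63 and 11.03, and GR14 read 5.78, 5.13 and 5.81. The fold over WT was 5.53 ± 0.39 (SE; limma adjusted p = 2.42e-05), and that over GR14 was 5.73 (95% interval 4.88 to 6.58; limma adjusted p = 3.23e-06). HFL1 minus 35S-15 was 0.43, with a 95% interval of -0.42 to 1.28. The second probe set of LOC9268308, Os.10659.1.S1_at, read 9.11, 8.97 and 9.26 in HFL1, against 6.13, 2.52 and 3.10 in WT. Its fold over WT was 5.20 ± 0.70 (SE; limma adjusted p = 0.0189), and here WT array 1 was the brightest WT array. WT arrays 2 and 3 lay below their medians, and the fold was 2.99 with WT array 1 and 6.30 with WT arrays 2 and 3. The HFL1 mean stood 3.27 above the mean of the WT medians, and the probe set passed in 9 of 17 alternatives.

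OsAffx.16638.1.S1_at, which has no gene in the annotation, was higher in HFL1 than in the other lines as well as in WT. It read 8.68, 8.92 and 9.27 in HFL1, 2.02, 3.15 and 3.53 in 35S-15, 4.91, 4.75 and 4.32 in GR14, and 0.09, 1.92 and 0.30 in WT. No array of another group reached an HFL1 array. The fold over WT was 8.19 ± 0.92 (SE; limma adjusted p = 0.00281), and the HFL1 mean stood 3.11 above the mean of the WT medians. HFL1 exceeded GR14 by 4.30 (limma adjusted p = 0.0123), while its difference of 6.05 from 35S-15 did not pass (limma adjusted p = 0.168). The arrays of GR14 and 35S-15 also lay below their medians, and the HFL1 mean stood 3.03 above the mean of the GR14 medians and 2.95 above that of the 35S-15 medians.

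Os.45957.1.S1_at, also without a gene, was graded across the lines. It read 8.60, 8.78 and 8.25 in HFL1, against 5.71, 5.98 and 6.67 in WT, a fold of 2.42 ± 0.26 (SE; limma adjusted p = 0.0020), or 5.36 on the linear scale. GR14 averaged 10.16 ± 0.22 (SD, n = 3) and stood above HFL1, whose difference from GR14 was -1.62 (limma adjusted p = 0.00202). 35S-15 averaged 9.02 ± 0.28 (SD, n = 3), and HFL1 minus 35S-15 was -0.47, with a 95% interval of -1.03 to 0.09.

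Os.18207.1.A1_s_at, the last called probe set and one without a gene, read 8.41, 8.73 and 8.43 in HFL1, against 5.30, 4.73 and 5.80 in WT. 35S-15 read 8.40, 8.34 and 7.87, and GR14 read 6.09, 8.16 and 6.37. HFL1 exceeded GR14 by 1.65 (limma adjusted p = 0.0468), while HFL1 minus 35S-15 was 0.32 and did not pass (limma adjusted p = 0.983). Every WT value lay below its array median, and the HFL1 mean stood 2.67 above the mean of those medians. The fold over WT of 3.25 ± 0.46 (SE; limma adjusted p = 0.0293) passed in 8 of 16 alternatives. It did not pass with WT array 1 as the only control (3.23; adjusted p = 0.147) or with WT arrays 2 and 3 alone (3.26; adjusted p = 0.0900). The other 8 called probe sets passed with WT arrays 2 and 3 alone and with WT array 1 as the only control.

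**Figure D3:**
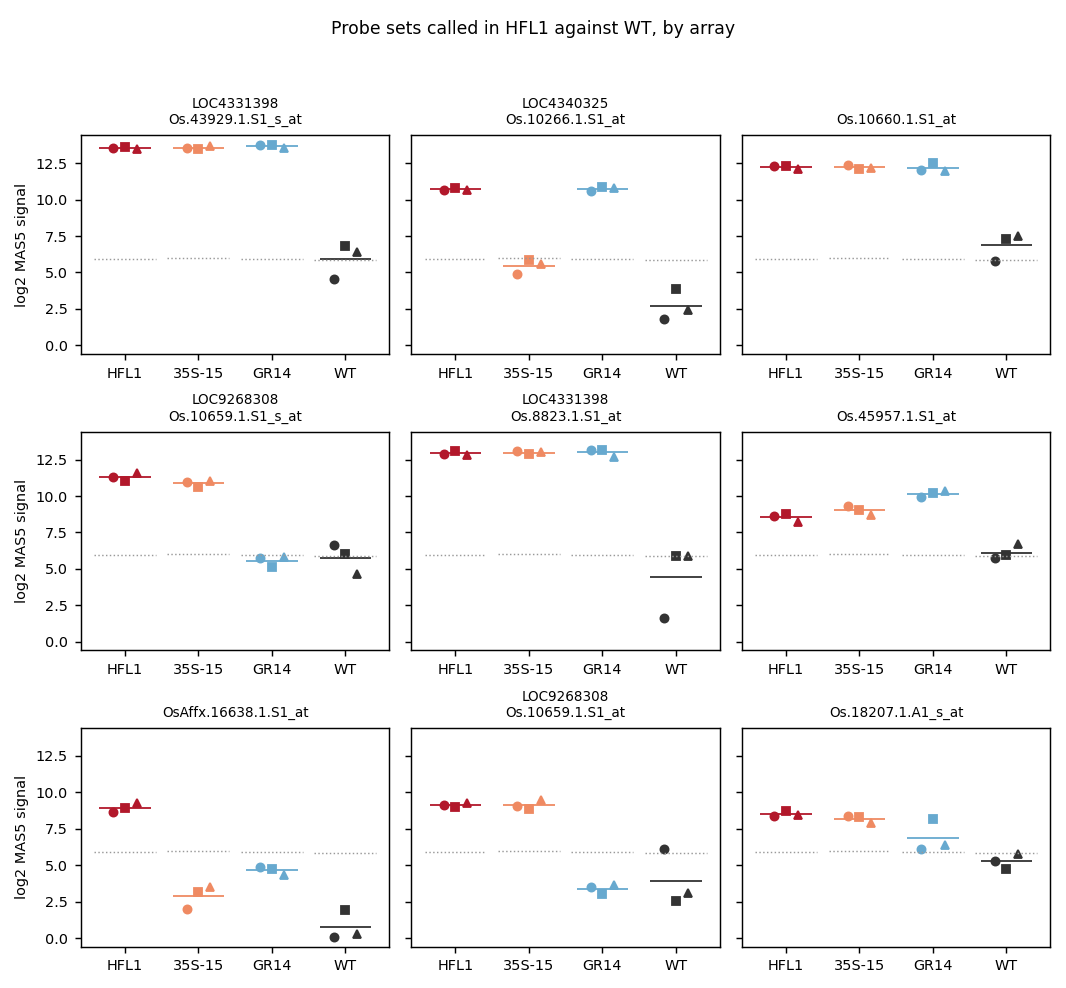
Log2 MAS5 signal of the 9 called probe sets in each array (circle, square and triangle for replicates 1, 2 and 3), by group, with the group mean as a line and the mean of the array medians dotted. LOC4331398 and Os.10660.1.S1_at are high in all 3 lines, LOC4340325 in HFL1 and GR14, LOC9268308 in HFL1 and 35S-15, and OsAffx.16638.1.S1_at reaches 8.68 or more only in HFL1.

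Counted over the 9 called probe sets, HFL1 differed from GR14 at 5 and from 35S-15 at 1 by the same test. Over all 28800 probe sets HFL1 differed from GR14 at 2165 (7.52%) and from 35S-15 at 2 (0.00694%). GR14 was called against WT at 6 of the 9 (6.31% of all probe sets), and 35S-15 at 6 of the 9 (0.0312%). These comparisons share the HFL1 or the WT arrays and are not independent of each other. The p-values were adjusted within each comparison, so differences of like size and SE can pass in some comparisons and not in others.

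The transcripts whose levels followed the called ones most closely are given as a description over the 12 arrays, which share their groups. They were looked for among genes with 1 probe set each, leaving out the gene's own other probe sets and those without a gene. For LOC4331398 the highest correlation was with LOC4337069 (Pearson r = 0.941), which averaged 9.13 in HFL1, 9.00 in 35S-15, 9.15 in GR14 and 8.37 in WT. For LOC4340325 it was with LOC9272724 (r = 0.943), at 9.44 in HFL1, 9.08 in 35S-15, 9.38 in GR14 and 8.79 in WT. For LOC9268308 it was with LOC4341761 (r = 0.981), at 10.75 in HFL1, 10.75 in 35S-15, 10.21 in GR14 and 10.21 in WT. For OsAffx.16638.1.S1_at it was with LOC4352476 (r = 0.869), at 8.02 in HFL1, 7.37 in 35S-15, 7.77 in GR14 and 7.05 in WT. The levels of these genes moved over a far narrower range than those of the called transcripts.

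No transcript was called lower, and the nearest was LOC4330940, a gene without a symbol. Its probe set Os.13781.1.S2_at read 11.02, 11.67 and 11.28 in HFL1, against 13.24, 12.73 and 12.68 in WT. The groups did not overlap, and the fold was -1.57 ± 0.25 (SE; limma adjusted p = 0.0875). A second probe set, Os.13781.1.S1_at, read 8.58, 8.60 and 8.25 in HFL1, against 10.44, 9.81 and 10.45 in WT, a fold of -1.76 ± 0.46 (SE; limma adjusted p = 0.590). The remaining one, Os.52005.1.S1_at, read 5.77, 6.77 and 4.72 in HFL1, against 5.34, 5.49 and 4.34 in WT, and was too dim to be tested.

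Against 35S-15, LOC4330940 was lower in HFL1 by the test on Os.13781.1.S2_at (-2.05, 95% interval -2.60 to -1.51; limma adjusted p = 0.0282). 35S-15 read 12.96, 13.13 and 14.03 there, and GR14 read 11.92, 12.00 and 11.93. GR14 was itself called lower than WT on this probe set, by -0.94 (limma adjusted p = 0.0454). HFL1 minus GR14 was -0.63 and did not pass (limma adjusted p = 0.162).

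Beyond the called probe sets, the largest differences were mostly of dim transcripts, and none passed the test. Over all 28800 probe sets, 7.49% were higher and 5.65% lower in HFL1 with no overlap between the groups, at any fold or brightness. A stricter rule asked for 1 gene, at least 2-fold, no overlap, and the brighter group above its array medians. How many tested probe sets have 1 gene is not given here, so counts by this rule carry no share. Counting the called ones, 92 probe sets were higher and 47 lower in HFL1 by it. Among these, the largest positive folds outside the called set were LOC4349814 at 3.34 ± 1.25, GDCSH at 2.96 ± 0.79 and LOC4346499 at 2.73 ± 0.65 (SE). GDCSH encodes the H protein of the glycine cleavage system, and its probe set Os.37495.1.S1_at read 6.32, 6.28 and 6.42 in HFL1, against 5.09, 2.40 and 2.65 in WT. All 3 WT values were below their array medians, and the brighter probe set of the gene differed by only 0.84 (limma adjusted p = 0.590). The largest negative folds among them were LOC4338565 at -3.10 ± 0.71, LOC4332323 at -2.48 ± 0.66, LOC4348445 at -2.14 ± 1.24, LOC4348162 at -2.01 ± 1.00 and LOC4346442 at -1.98 ± 0.65 (SE). LOC4331435 at -1.88 ± 0.58 and LOC4337274 at -1.69 ± 0.71 (SE) followed. The probe set of LOC4346442 named here averaged 4.55 in HFL1 and 6.52 in WT. A brighter probe set of that gene, at 9.16 in HFL1 and 9.35 in WT, had a fold of -0.19, and a further dim probe set had a fold of 0.05. The other probe set of LOC4349814 had a fold of 0.30.

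LOC4338565 read 2.33, 2.87 and 5.05 in HFL1, against 5.87, 7.12 and 6.58 in WT (limma adjusted p = 0.469). Against GR14 its level in HFL1 was lower by the test (-3.52; limma adjusted p = 0.00906). LOC4332323 (-2.56; limma adjusted p = 0.0335) and LOC4331435 (-2.06; limma adjusted p = 0.0468) were also called lower in HFL1 than in GR14. All HFL1 values of these 3 genes lay below their array medians, so the sizes of these differences rest on dim signal. The GR14 mean stood 1.01 above the mean of the HFL1 medians for LOC4338565, 0.56 for LOC4332323 and 0.20 for LOC4331435.

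Genes of lysine synthesis and the aspartate family gave no call. None of the 7 with a symbol passed, 5 had a positive fold, and the median fold was 0.08, beside 0.0044 over all 15714 genes tested (1 probe set per gene). Of the 7, 5 act in lysine synthesis, with folds of -0.04 to 0.68, and 3 of those were positive. DAPB2, named for dihydrodipicolinate reductase, read 8.66, 8.03 and 8.09 in HFL1, against 7.43, 7.62 and 7.68 in WT. Its groups did not overlap, but the fold of 0.68 ± 0.31 (SE) had a limma adjusted p of 0.729. DAPB1 (0.05 ± 0.21), DAPF, the diaminopimelate epimerase (0.08 ± 0.12), LYSA, the diaminopimelate decarboxylase that forms lysine (-0.04 ± 0.15), and AGD2, the diaminopimelate aminotransferase (-0.03 ± 0.15), lay near 0.

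In a branch of the same amino acid family, METK3, an S-adenosylmethionine synthetase gene, showed the widest difference of the list. It read 11.20, 11.45 and 11.65 in HFL1, against 8.37, 10.80 and 11.28 in WT, a fold of 1.29 ± 0.53 (SE; limma adjusted p = 0.712). The low value was WT array 1: against that 1 array, which has no replicate, the fold was 3.07. SAMS2, of the same enzyme family, differed by 0.16 ± 0.12 (SE). Dihydrodipicolinate synthase, aspartate kinase and lysine ketoglutarate reductase were not analysed here, as no symbol in the tables used pointed to them.

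Tryptophan, serotonin and melatonin genes were divided. Of 10 tested, 5 had a positive and 5 a negative fold, none passed, and the median was -0.01. OASA1, an anthranilate synthase subunit of tryptophan synthesis, read 10.77, 10.29 and 10.99 in HFL1, against 11.38, 11.27 and 11.20 in WT (-0.60 ± 0.25, SE). TDC2, a tryptophan decarboxylase gene, read 10.24, 9.90 and 10.08 in HFL1, against 10.60, 10.85 and 10.25 in WT (-0.50 ± 0.22, SE). T5H, the tryptamine 5-hydroxylase that makes serotonin, read 10.29, 10.30 and 10.35 in HFL1, against 10.10, 10.13 and 10.02 in WT (0.23 ± 0.19, SE). SNAT2, a serotonin N-acetyltransferase gene, had the largest positive fold, 0.71 ± 0.29 (SE; limma adjusted p = 0.712).

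The storage and starch genes were close in both groups. All 5 glutelin genes had a small positive fold, 0.04 to 0.16 with a median of 0.14, and the groups overlapped for each. GLUA1 read 15.77, 15.98 and 15.64 in HFL1, against 15.84, 15.68 and 15.42 in WT. The 5 prolamin and seed albumin genes had folds of 0.23 to 0.38 with a median of 0.30, and none passed. That median was -0.01 with WT array 1 as the control and 0.51 with WT arrays 2 and 3. Among them, RAG1 and RAG2 encode seed albumins and PROLM25 a prolamin. Of 9 genes matched by name to starch synthesis none passed, with a median of 0.05. LOC4331090 and LOC4341088 entered this list by the shared name PHO1 alone, and their part in starch synthesis was not checked. AGPS2, a subunit of ADP-glucose pyrophosphorylase, had a fold of 0.29 ± 0.17 (SE).

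Seed transcription factor genes had a negative fold for 3 of 4, with none passing and a median of -0.56. For 2 of the 4 all HFL1 arrays lay below all WT arrays, beside 5.82% of all genes. NFYB1, a nuclear factor Y subunit expressed in rice endosperm and aleurone, read 13.34, 12.85 and 13.35 in HFL1, against 13.92, 14.03 and 14.02 in WT. The groups did not overlap, with a fold of -0.81 ± 0.15 (SE; limma adjusted p = 0.249). It read 13.30, 12.86 and 13.10 in 35S-15 and 13.38, 13.25 and 13.20 in GR14. Only GR14 passed against WT (-0.72, limma adjusted p = 0.0147). The fold of 35S-15 was larger at the same SE but did not pass (-0.91, limma adjusted p = 0.0920), as p-values were adjusted within each comparison. VP1, the rice counterpart of maize VIVIPAROUS1, read 10.16, 10.36 and 10.03 in HFL1, against 11.44, 10.57 and 10.47 in WT (-0.65 ± 0.26, SE). WT array 1 was the highest WT array for VP1, and the other WT arrays lay closer to HFL1. SUT1, a sucrose transporter gene, had a fold of -0.30 ± 0.14 (SE; limma adjusted p = 0.739).

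Photosynthesis genes, which mark the green pericarp, had a positive fold for 16 of 16 tested, beside 50.8% of all genes. Their folds were 0.11 to 0.63 with a median of 0.35, but none passed. Their mean level over the list was 12.02, 12.25 and 11.93 in the HFL1 arrays, against 11.55, 11.83 and 11.78 in the WT arrays, with no overlap. The HFL1 arrays lay above the WT arrays for 8 of the 16, beside 8.52% of all genes, and 6 had an unadjusted p under 0.05, beside 7.51% of all genes. PORB, a protochlorophyllide oxidoreductase gene of chlorophyll synthesis, read 11.18, 11.40 and 11.25 in HFL1, against 10.47, 10.61 and 10.87 in WT, a fold of 0.63 ± 0.15 (SE; limma adjusted p = 0.469). PETC, the Rieske protein of the cytochrome b6f complex, had a fold of 0.53 ± 0.13, and PSAH, a subunit of photosystem I, one of 0.48 ± 0.16 (SE). The median of the list was 0.47 with WT array 1 and 0.21 with WT arrays 2 and 3, and it was 0.35 for 35S-15 and -0.49 for GR14 against WT.

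ER chaperone and unfolded protein response genes had a negative fold for 15 of 23, with a median of -0.17, and none passed. ERDJ3B, an ER co-chaperone with a J domain, read 11.90, 12.70 and 11.89 in HFL1, against 12.41, 13.57 and 13.29 in WT (-0.93 ± 0.29, SE; limma adjusted p = 0.640). ERDJ3A differed by -1.0 ± 0.33, and BZIP50, a transcription factor of the unfolded protein response, by -0.85 ± 0.30 (SE). WT arrays 2 and 3, in which OsBiP4 was high, were also the higher WT arrays for these 3 genes. The median of the list was 0.04 with WT array 1 as the control and -0.22 with WT arrays 2 and 3. The mean level of the list was 11.23, 11.48 and 11.25 in HFL1, against 11.35, 11.72 and 11.68 in WT, and the part of the OsBiP4 difference in this was not tested.

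**Figure D4:**
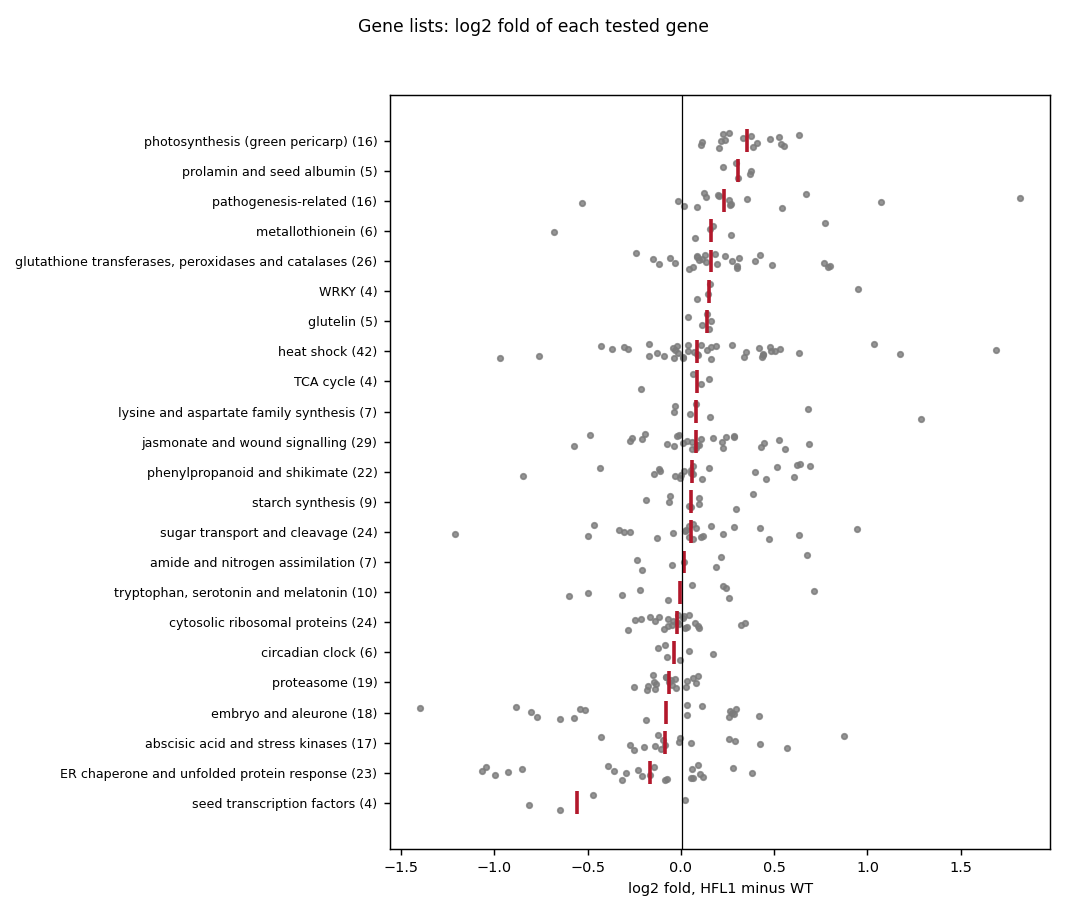
Log2 fold, HFL1 minus WT, of each tested gene (grey points) in 23 gene lists, with the number of tested genes in brackets, the list median in red and the median of all genes as the vertical line. Photosynthesis genes all lie right of 0 with a median of 0.35, and the lowest single folds are in the embryo and aleurone list (-1.40), the sugar list (-1.21) and the ER chaperone list (-1.07).

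Genes of defence and of phenylpropanoid synthesis gave no call. Pathogenesis-related genes had a positive fold for 14 of 16, beside 50.8% of all genes tested, with a median of 0.23. With WT array 1 as the control, 9 of the 16 were positive and the median was 0.09. With WT arrays 2 and 3, 15 were positive and the median was 0.25. CHT1 (LOC4338719), a chitinase gene, read 6.60, 6.53 and 6.26 in HFL1, against 5.06, 5.22 and 3.64 in WT (1.82 ± 0.57, SE; limma adjusted p = 0.640). All 3 WT values lay below their array medians, and the HFL1 mean stood 0.61 above the mean of those medians. CHT11, another chitinase gene, differed by 1.07 ± 0.41 (SE), with WT array 1 the lowest. Of 26 genes of glutathione transferases, peroxidases and catalases, 21 had a positive fold, with a median of 0.16, and GSTZ5, a glutathione transferase gene, had a fold of 0.77 ± 0.24 (SE). CAD3, named for the cinnamyl alcohol dehydrogenases of lignin synthesis, read 13.09, 13.07 and 12.58 in HFL1, against 12.14, 12.39 and 12.13 in WT (0.69 ± 0.18, SE; limma adjusted p = 0.590). Its list of 22 phenylpropanoid and shikimate genes had a median of 0.06.

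Among 42 heat shock genes, with a median of 0.09, none passed. HSF6 (LOC4348646) read 10.42, 10.27 and 10.55 in HFL1, against 9.07, 9.16 and 9.90 in WT, a fold of 1.04 ± 0.21 (SE; limma adjusted p = 0.448). Its entry in the gene table carries the name ARD1 as well, and its other probe set had a fold of -0.34. GLN2, the plastid glutamine synthetase of nitrogen assimilation, read 11.57, 11.49 and 11.21 in HFL1, against 10.61, 10.99 and 10.65 in WT (0.68 ± 0.18, SE; limma adjusted p = 0.605), while its other probe set had a fold of -0.27. AOC, the allene oxide cyclase of jasmonate synthesis, had a fold of 0.69 ± 0.25 (SE), and its list of 29 jasmonate and wound genes had a median of 0.08.

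**Figure D5:**
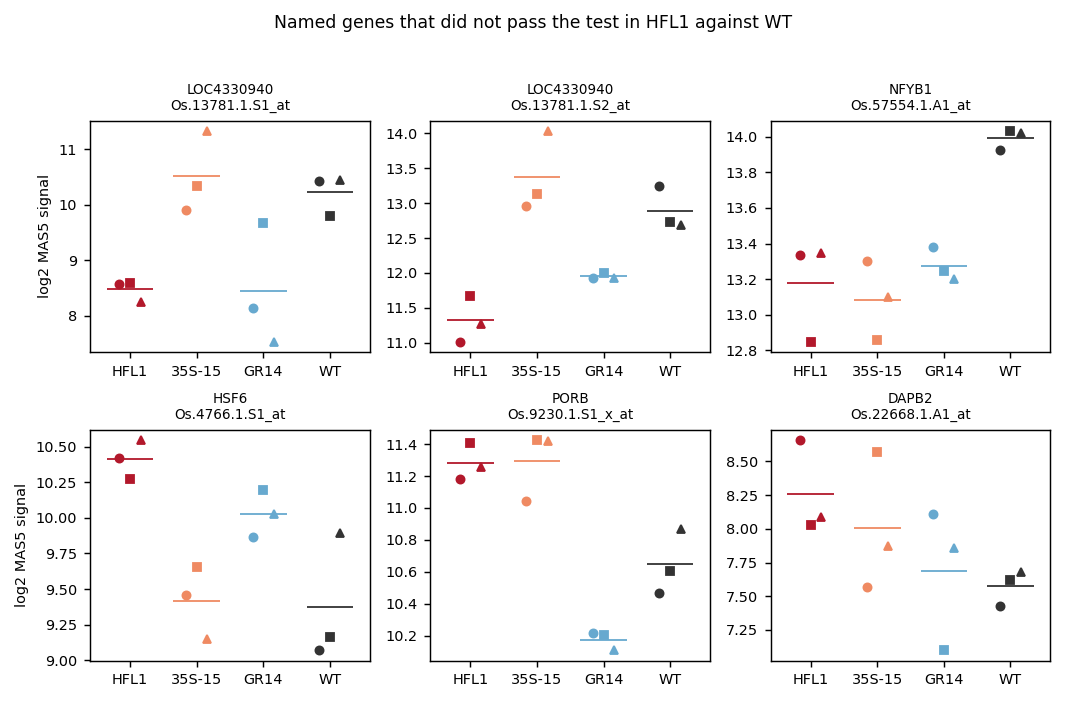
Log2 MAS5 signal in each array (circle, square and triangle for replicates 1, 2 and 3), by group, with the group mean as a line, for 5 genes that did not pass the test in HFL1 against WT; each panel has its own vertical scale. The HFL1 arrays lie below the WT arrays for LOC4330940 and NFYB1 and above them for HSF6, PORB and DAPB2.

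The remaining lists had no call either. CCA1, a central gene of the circadian clock, read 13.29, 12.76 and 13.09 in HFL1, against 13.21, 13.24 and 13.05 in WT (-0.12 ± 0.20, SE), whereas GR14 read 9.09, 8.69 and 8.66. The 6 clock genes had a median of -0.04, and the 18 embryo and aleurone genes one of -0.08, which was -0.33 with WT array 1 and 0.02 with WT arrays 2 and 3. The 24 genes of cytosolic ribosomal proteins had a median of -0.02, which was 0.24 with WT array 1 and -0.15 with WT arrays 2 and 3. The 19 proteasome genes had a median of -0.06, and PAG1, a proteasome subunit gene, had a fold of -0.25 ± 0.11 (SE). MT2B (LOC4326409), a metallothionein gene, had a fold of 0.27 ± 0.18 (SE). Its other probe sets had folds of 0.26 and 0.79, the second with no overlap between the groups (limma adjusted p = 0.672). The lists of sugar transport and cleavage, abscisic acid and stress kinases, WRKY, metallothionein, amide and nitrogen assimilation, and TCA cycle genes had medians of 0.05, -0.09, 0.15, 0.16, 0.01 and 0.09 in that order, and no gene of them passed. The sign of several list medians turned with the WT arrays used. With WT array 1 and with WT arrays 2 and 3, the jasmonate median was -0.15 and 0.16, and the tryptophan median -0.24 and 0.09. In the same order the amide median was -0.15 and 0.08, the sugar median -0.12 and 0.02, and the heat shock and phenylpropanoid medians were both -0.02 and 0.17.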

How the data were processed

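Seed RNA (6 ug per sample, as stated in the labels' protocols) was hybridised to an Affymetrix rice array. The deposited intensity of each probe set is a linear MAS5 signal, per the submitters' processing notes; its version is not given in the sources used here. The 2% trimmed mean was about 500.1 in every array, so the authors had scaled the arrays. No detection calls were used here, and the number of arrays limits the precision. From the intensity, log2 was taken with no further normalization. Probe sets above their array median in at least 3 of the 6 HFL1 and WT arrays were tested (28800), without AFFX and RPTR probe sets. A 4-group model of all 12 arrays was fitted with limma 3.58.1 in R 4.3.3 (lmFit, eBayes with an intensity trend, two-sided, Benjamini-Hochberg at 0.05). Replicate numbers follow the order of accessions and pair no samples. An exact permutation test of 3 against 3 arrays cannot go below p = 0.1, so none was used.

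Genes came from the array annotation, updated through the RefSeq gene table of ASM3414082v1: 22436 probe sets had 1 gene, 95 several and 34850 none. No coordinates are given, and no sequences were used. Named are all called probe sets, the 8 largest folds each way by the stated criteria, the 3 genes of lowest p per list that bear on a result, and genes of earlier interest; the transcripts plotted for unlike WT arrays were chosen after their values were seen. The members and the 24 lists were chosen with earlier results of these data known. In all, 28 wrong name matches were dropped, and the lysine breakdown list matched no gene. Names shared by unlike genes can remain, and the matches by PHO1 (starch list) and by GS2 (amide list) were not checked further. On simulated data for HFL1 against WT with 28800 probe sets, the fit called 37 of 100 changed by 1 and 75 of 100 changed by 2 on the log2 scale, and 10 unchanged ones. The simulated noise was normal with the same SD in every group, and no WT array was made unlike the others. In the data the WT arrays were not alike, so these counts need not hold there.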

Additional observations from a re-analysis of the deposited data

How the results depend on the processing

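The count of 9 called probe sets was 5 with the filter at the 70th percentile and 23 with WT array 1 as the only control, where all 23 were higher in HFL1. Leaving out 1 array at a time gave 6 to 16; the 16 came without WT array 1, with 10 higher and 6 lower. Quantile normalization, median centring, no filter, a filter over 12 arrays, leaving out _x_at and _s_at probe sets, an offset of 50, a fit without the intensity trend, array weights, a fit of the 6 arrays alone and a 2-fold threshold gave 6 to 11. LOC4330940 (Os.13781.1.S2_at) was the 1 lower call under quantile normalization, median centring, no filter and array weights. Os.10266.1.S1_at of LOC4340325 and Os.10660.1.S1_at passed in 17 of 17 alternatives, the probe sets Os.43929.1.S1_s_at of LOC4331398 and Os.10659.1.S1_s_at of LOC9268308 in 16 of 16. OsAffx.16638.1.S1_at passed in 13 of 17 and Os.10659.1.S1_at in 9 of 17; the cause was not tested. No named result reversed in a called direction. No paired analysis was possible because the replicate numbers are only names given in accession order. Dim WT signal limits the size of the large folds.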

Other observations

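With WT arrays 2 and 3 as the control, 16 probe sets were called (0.0556% of 28800), 6 of them lower in HFL1. The farthest was LOC4347551, which read 8.87, 9.69 and 8.79 in HFL1, against 9.49, 12.10 and 12.40 in WT (-3.13; limma adjusted p = 0.000444). LOC4344180 (-1.63), SAT1 (-1.87), LOC4325536 (-1.63), LOC4345684 (-1.13) and Os.40808.1.S1_x_at (-1.12) were the others, and WT array 1 was the lowest WT array for each. LOC4339251 was called higher (1.30; limma adjusted p = 0.0484), reading 11.35, 11.36 and 11.03 in HFL1, against 11.13, 10.04 and 9.85 in WT.

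With WT array 1 as the only control, 23 probe sets were called (0.0799%). SAP7, a gene named for the stress-associated proteins, was among them at 4.53, reading 6.95, 7.82 and 7.05 in HFL1, against 2.74, 5.67 and 6.39 in WT. WT array 1 was the lowest of the 3, and a fit with this control takes its spread from the other groups.

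Os.54492.1.S1_s_at, which has no gene in the annotation, lay just outside the threshold (5.85; limma adjusted p = 0.0621) and was called in 8 alternatives. It read 9.22, 9.60 and 9.31 in HFL1, 9.27, 9.07 and 9.86 in 35S-15, 5.00, 6.23 and 4.62 in GR14, and 4.83, 5.15 and 0.58 in WT.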
